A study of Oryza sativa with 12 samples.

Results

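Leaves of unstressed rice plants were compared between idr1-1, a mutant of the gene for the G protein alpha subunit, RGA1, and its wild type. All libraries carrying the control label were taken, 6 of the 12 in the series, with 3 for each genotype. Both genotypes were of the cultivar IAPAR9, both were sampled at the five-leaf stage, 5 weeks old, and both stood in concrete tanks with no water withheld. The other 6 libraries came from the same 2 genotypes after drought, when soil moisture had fallen to 10%. They are used here in the filter, the scaling and the shared estimate of spread, and for values set beside the control ones. The mutant is 1 line, and whether leaves of several plants were pooled is not given in the sources used here. The tissue label says leaf, whereas the extraction protocol speaks of seedlings.

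Heterotrimeric G proteins pass signals from the plasma membrane into the cell: the alpha subunit binds GTP, parts from the beta and gamma subunits, and both pieces act on other proteins. In rice, loss of the alpha subunit gives the dwarf plants known as d1, with short, broad leaves, and the subunit has been tied to gibberellin and brassinosteroid signalling and to defence. Cellulose, which recurs below, is spun out at the plasma membrane by complexes of CESA proteins, with one set working in growing primary walls and another in the thick secondary walls of vessels and fibres.

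Counts per library were 19100444 to 23081155 in control leaves, and 3 counts corresponded to 0.13 to 0.157 CPM (counts scaled to library size, here by plain totals and for all other values by totals corrected with TMM factors). Within a genotype the libraries correlated at 0.990 to 0.993 over log2(CPM + 1), and no pair was a duplicate. The first principal component of the 6 libraries carried 62.8% of their variance and separated the genotypes. Replicate 2 of each genotype lay nearest to the other genotype on it, at -18.2 in wild type and 14.7 in idr1-1, while the remaining libraries lay at or beyond 30.7 on either side. Markers fixed for leaf whose names were matched (CAB1R, CAB2R and RCA) summed to 15280 to 23160 CPM in wild type and 21600 to 24170 CPM in idr1-1. None of these 3 was called. RBCS2 and LHCA1 were also fixed for leaf, but their names were not matched and they are not in the sum. The 5 shoot apex markers summed to 0.129 CPM or less in every library, with 2 of them at 0. Among the drought libraries, replicate 3 of idr1-1 stood apart from the other 2 of its group, with a TMM factor of 1.11 against 0.89 and 0.897 and 12.28% of its counts in the 20 most abundant loci against 16.94% and 15.94%. The 4 markers of dividing tissue summed to 14.4 to 16.6 CPM in wild type and 14.2 to 17.3 CPM in idr1-1.

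RGA1 (LOC_Os05g26890), the gene the mutation lies in, was lower in idr1-1. Its level was 28.9, 25.4 and 31.5 CPM in wild type replicates 1, 2 and 3, and 11.1, 12.5 and 12.01 CPM in idr1-1. Each mutant library was below each wild type library, by 1.27 on the log2 scale on average (SE 0.11, adjusted p = 5e-04 in edgeR's quasi-likelihood test). That call held without any 1 of the 6 libraries, with an adjusted p of at most 0.00751. RGA1 values were not whole numbers in all 6 libraries, so some of its reads were shared with another feature. In drought the gene was again lower, by 1.02 (SE 0.11, adjusted p = 0.0053).

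RGB1, which encodes the beta subunit, stood at 32.0, 28.8 and 30.9 CPM in wild type and 32.9, 31.4 and 30.4 CPM in idr1-1. TUD1, a U-box ubiquitin ligase known to bind the alpha subunit in rice, stood at 31.7, 34.2 and 29.3 CPM against 30.8, 31.5 and 30.3 CPM. For both genes the genotypes overlapped. The log2 differences, idr1-1 minus wild type, were 0.05 (SE 0.09) and -0.04 (SE 0.07), each with an adjusted p of 0.77, and the sign of the first turned with library size scaling alone and that of the second without wild type replicate 2.

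**Figure D1:**
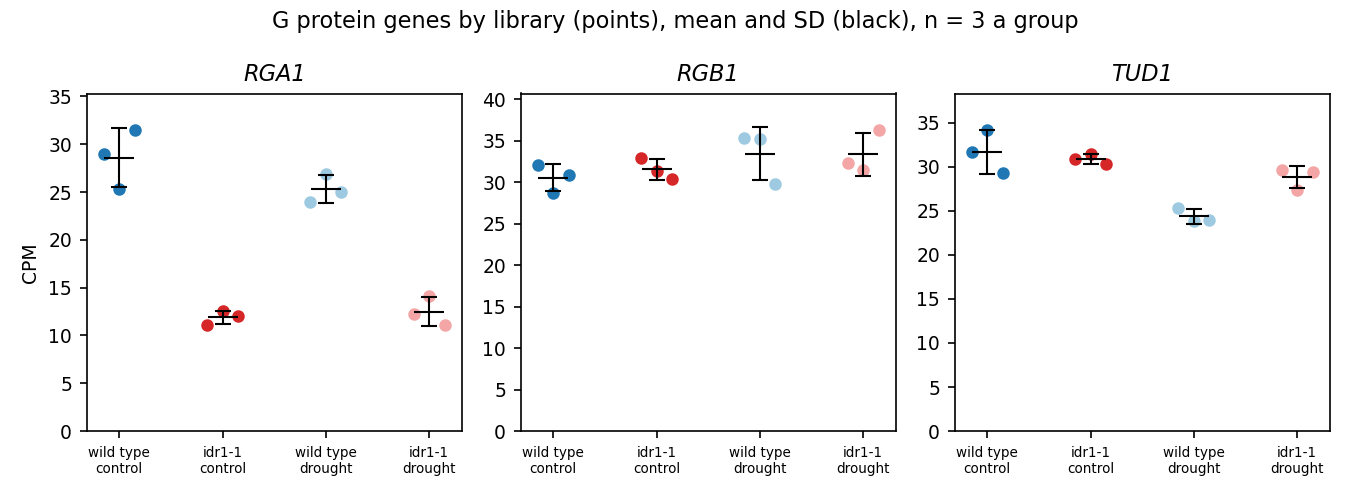
CPM of RGA1, RGB1 and TUD1 (vertical axes, from 0) in each of the 12 libraries, with the mean and SD of each group of 3. RGA1 lay at 25.4 to 31.5 CPM in wild type control and at 11.1 to 12.5 CPM in idr1-1 control, while RGB1 and TUD1 overlapped between the control groups.

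Of 22833 loci with enough counts, 2391 (10.5%) differed between the genotypes at an adjusted p under 0.05. Of these, 1266 (5.54%) were higher in idr1-1 and 1125 (4.93%) lower. Of the called loci, 1045 changed by less than 1.5-fold, and the medians were 0.62 for the risers and -0.68 for the fallers on the log2 scale. At least 2-fold changes made up 660 calls (2.89%), with 277 up (1.21%) and 383 down (1.68%), and at least 4-fold changes 65 up and 124 down. The 2 groups did not overlap in 2371 of the called loci. Over all loci tested they did not overlap in 19.8% with idr1-1 higher and in 19.3% with idr1-1 lower. In drought, the same contrast of genotypes called 42 loci (0.184%), of which 10 (0.0438%) were higher in idr1-1 and 32 (0.14%) lower. That count includes idr1-1 drought replicate 3, which stood apart from its group, and it was not made without that library. The difference between the 2 genotype contrasts, control minus drought, passed the same threshold for 11 loci (0.0482%), and for 489 without that library.

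How many loci were called rested heavily on single libraries. Without wild type replicate 1 the count was 292, without wild type replicate 3 it was 512, without idr1-1 replicate 1 it was 643 and without idr1-1 replicate 3 it was 207. Without idr1-1 drought replicate 3 it was 4557, and with the 6 control libraries alone it was 3822. That drought library is in neither group compared, but it enters the filter, the scaling and the estimate of spread. Without it 23197 loci were tested. At an unadjusted p under 0.05 the count was 6562 with all libraries and 4771 to 6410 with 1 control library left out.

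**Figure D2:**
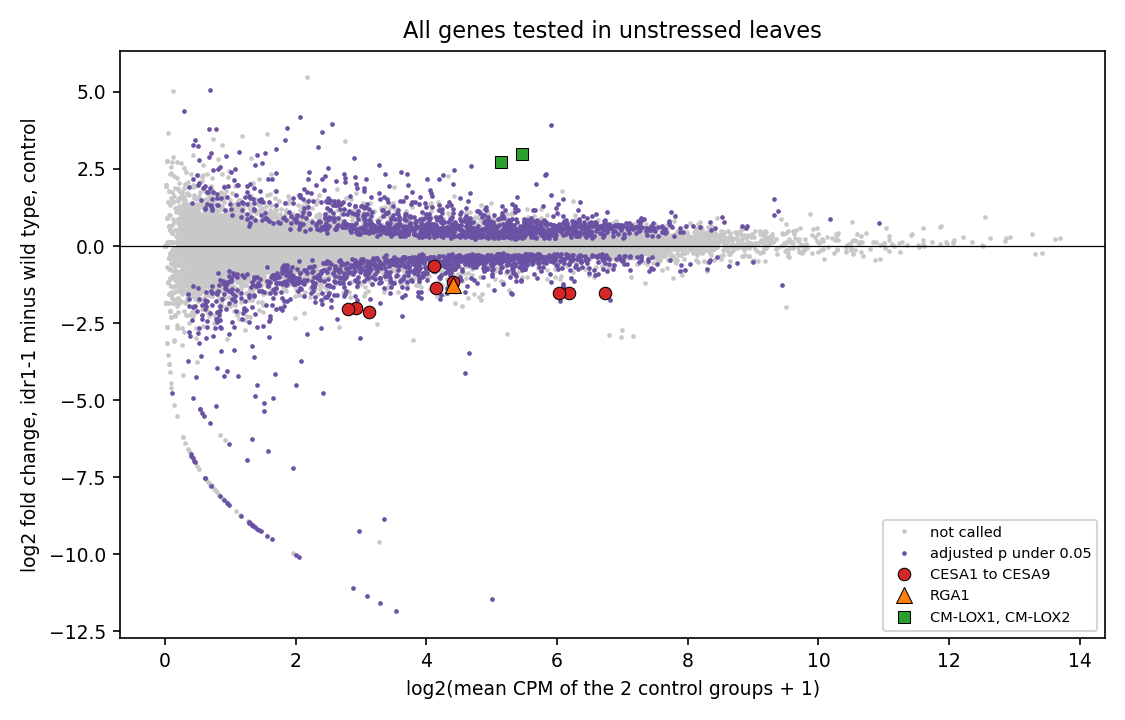
Log2 fold change, idr1-1 minus wild type in control leaves (vertical axis), against log2 of the mean CPM of both groups plus 1 (horizontal axis), for the 22833 loci tested, with the 2391 called ones in purple. All 9 CESA genes lie below 0, on either side of RGA1 at -1.27, and the curve of points at the lower left is made of loci with few or no counts in idr1-1.

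Cellulose synthase genes were lower in idr1-1. Of the 9 CESA genes, 8 were called lower in idr1-1 and none higher, beside 4.93% of all loci tested that were called lower. Their median log2 fold change was -1.53, against 0.003 over all loci. All 9 had every idr1-1 library below every wild type library, against 19.3% of all loci.

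The secondary wall set had the larger fold changes. CESA4 (LOC_Os01g54620) was at 12.8, 9.77 and 14.8 CPM in wild type and 1.92, 5.20 and 1.40 CPM in idr1-1. CESA7 (LOC_Os10g32980) was at 10.3, 9.13 and 11.98 CPM against 1.45, 5.30 and 1.05 CPM. CESA9 (LOC_Os09g25490) was at 9.69, 7.71 and 11.3 CPM against 1.26, 4.35 and 1.35 CPM. In all 3 genes the same libraries stood closest together, replicate 2 of either genotype, and the groups still did not overlap. The log2 fold changes were -2.14 (SE 0.40, adjusted p = 0.013) for CESA4, -2.03 (SE 0.45, adjusted p = 0.021) for CESA7 and -2.06 (SE 0.40, adjusted p = 0.015) for CESA9. BC1, a COBRA-like protein needed for cellulose deposition in the mechanical tissue of rice stems, fell with them, from 2.83 ± 0.15 to 1.15 ± 0.66 CPM (SD, n = 3; log2 fold change -1.30, SE 0.32, adjusted p = 0.029).

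CESA4, CESA7 and CESA9 are also the markers fixed for vascular and fibre tissue. Their summed level was 26.6 to 38.1 CPM in wild type and 3.80 to 14.9 CPM in idr1-1, and all 3 of 3 were called lower. In whole leaves, fewer cells of a type and less RNA per cell cannot be told apart. The share of vascular tissue in the sampled leaves was not tested.

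In the primary wall set 5 of 6 genes were called lower. CESA1 (LOC_Os05g08370) was at 123, 74.7 and 119 CPM in wild type and 35.1, 52.4 and 23.7 CPM in idr1-1. CESA3 (LOC_Os07g24190) was at 187, 121 and 162 CPM against 51.1, 77.9 and 33.8 CPM. CESA8 (LOC_Os07g10770) was at 111, 71.3 and 105 CPM against 27.1, 49.1 and 23.0 CPM. Here too replicate 2 was the lowest of the wild type libraries and the highest of the mutant ones, with no overlap. CESA1 fell by 1.51 (SE 0.27, adjusted p = 0.012), CESA3 by 1.53 (SE 0.35, adjusted p = 0.023) and CESA8 by 1.54 (SE 0.28, adjusted p = 0.013) on the log2 scale.

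CESA6 (LOC_Os07g14850) was at 30.9, 22.1 and 30.1 CPM in wild type and 13.3, 14.2 and 9.81 CPM in idr1-1. CESA5 (LOC_Os03g62090) was at 29.5, 17.6 and 25.0 CPM against 9.59, 12.2 and 6.55 CPM. They fell by 1.15 (SE 0.15, adjusted p = 0.0051) and 1.35 (SE 0.25, adjusted p = 0.014). CESA2 (LOC_Os03g59340), the remaining member, was at 19.6, 16.9 and 23.4 CPM against 12.6, 14.6 and 10.6 CPM. Its groups did not overlap, but it did not pass the test (log2 fold change -0.66, SE 0.28, adjusted p = 0.14).

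**Figure D3:**
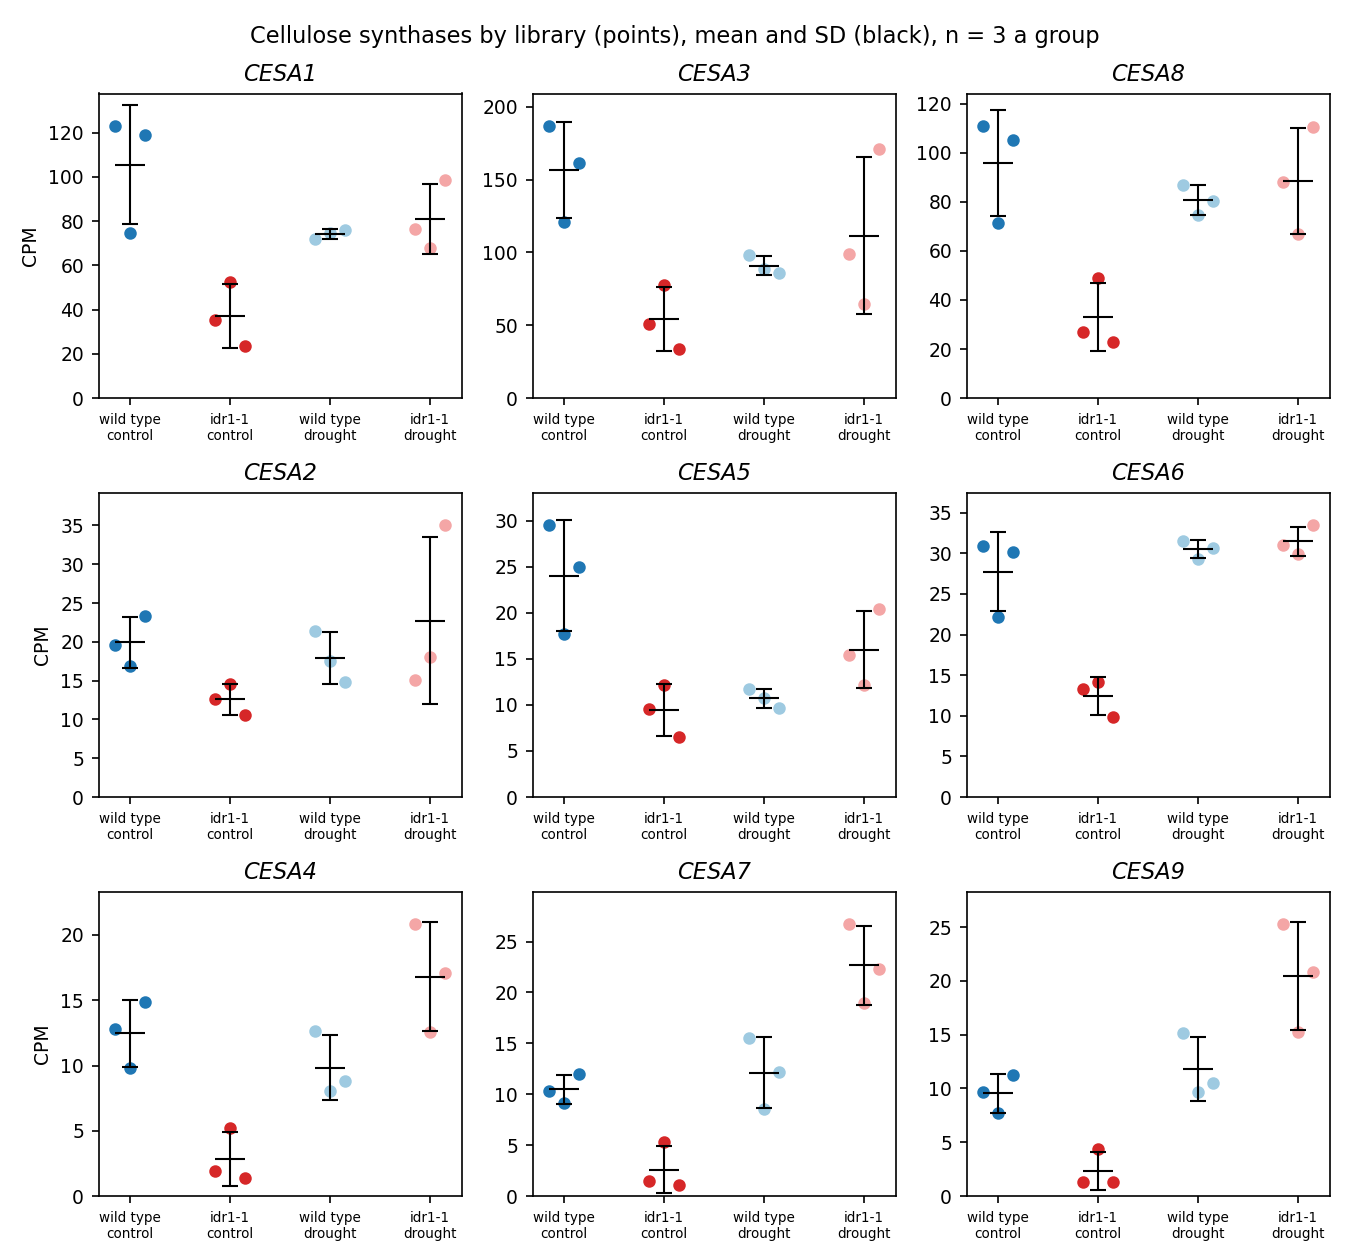
CPM of the 9 cellulose synthase genes (vertical axes, from 0) in each library, with the mean and SD of each group of 3; the top 2 rows show primary wall members and the bottom row the secondary wall set. In control leaves all idr1-1 libraries lie below all wild type ones, and in drought the idr1-1 means are not below the wild type means. Those drought means include idr1-1 drought replicate 3, which stood apart from its group.

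In drought no CESA gene was called between the genotypes, and the log2 fold changes of the 8 called in control were all above 0, from 0.05 for CESA6 to 0.90 for CESA7. CESA4, for example, was at 9.84 CPM in wild type drought and 16.8 CPM in idr1-1 drought. The difference between the 2 genotype contrasts, control minus drought, was -2.92 for CESA4, -1.93 for CESA5 and -1.20 for CESA6, each with an adjusted p of 0.069, and did not pass the test for any CESA gene. Over all loci, 11 (0.0482%) passed it. Without idr1-1 drought replicate 3, this difference passed it for 5 of the 9, namely CESA4 (adjusted p = 0.0303), CESA5 (adjusted p = 0.0329), CESA6 (adjusted p = 0.0301), CESA7 (adjusted p = 0.0366) and CESA9 (adjusted p = 0.0314). In that setting it was -1.46 for CESA1, -1.37 for CESA3 and -1.47 for CESA8, smaller in size than their control changes. The drought changes of these genes were then no longer above 0. For CESA6 the difference was -1.15, about its control change, and for CESA4, CESA5, CESA7 and CESA9 it stayed larger than theirs.

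The number of CESA genes called lower in control was 1 without wild type replicate 1, 5 without wild type replicate 3, 4 without idr1-1 replicate 1 and 2 without idr1-1 replicate 3. It stayed at 8 without replicate 2 of both genotypes. The lost calls, including BC1, had adjusted p-values of 0.0505 to 0.116, and CESA6 was called without any 1 of the 6 libraries.

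Other enzymes that lay down wall polysaccharides were in lists added after values were seen. The hemicellulose list held cellulose synthase-like (CSL) genes, with CSLD and CSLE members among them, and what each member makes was not tested. Of 16 of its genes tested, 3 were called lower and none higher, beside 4.93% lower and 5.54% higher over all loci. The list median was -0.35. CSLF6, which makes the mixed-linkage glucan of grass walls, was at 68.8, 48.5 and 55.2 CPM in wild type and 19.4, 29.6 and 9.46 CPM in idr1-1, with no overlap (log2 fold change -1.57, SE 0.32, adjusted p = 0.017). CSLA1, of a family that makes mannan backbones, fell by 1.64 (SE 0.30, adjusted p = 0.013), and CSLC9, of the xyloglucan backbone family, fell by 2.03 (SE 0.41, adjusted p = 0.017) from 2.11 ± 0.56 to 0.509 ± 0.226 CPM (SD, n = 3). Among 5 COBRA-like genes and other cellulose partners tested, 1 fell and 1 rose. BC1L7 went from 2.13 ± 0.37 to 0.504 ± 0.223 CPM (log2 fold change -2.08, SE 0.42, adjusted p = 0.017) and BC1L9 from 23.8 ± 2.3 to 56.3 ± 17.0 CPM (log2 fold change 1.24, SE 0.31, adjusted p = 0.031). With loci whose names were not matched, 6 of 19 loci of the hemicellulose list were lower and none higher. Likewise 4 of 9 COBRA-like and partner loci were lower and 1 higher.

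Tubulins build the cortical microtubules along which cellulose synthase complexes move. Of 9 tubulin genes tested, 3 were called lower, beside 4.93% of all loci, and none higher. TUBB8 was at 33.98, 23.4 and 22.8 CPM in wild type and 7.72, 11.7 and 5.10 CPM in idr1-1. TUBB1 was at 22.9, 17.3 and 21.2 CPM against 5.38, 9.92 and 4.70 CPM. Neither gene's groups overlapped, and they fell by 1.71 (SE 0.25, adjusted p = 0.0074) and 1.62 (SE 0.27, adjusted p = 0.01). TUBB5 fell by 0.83 (SE 0.24, adjusted p = 0.046). None of 13 expansins tested, which loosen growing walls, passed the test, beside 10.5% of all loci.

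Of the 8 called genes from CSLF6 to TUBB5, 2 were called without wild type replicate 1, 3 without wild type replicate 3, 4 without idr1-1 replicate 1 and 2 without idr1-1 replicate 3. TUBB8 was called without any 1 of the 6 libraries (adjusted p of at most 0.0334), and the call of TUBB5 was lost whichever 1 was left out (adjusted p 0.0526 to 0.159).

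Among lignin and phenylpropanoid genes, another list added after values were seen, 3 of 15 tested rose and 1 fell, beside 5.54% and 4.93% of all loci. CAD2, a cinnamyl alcohol dehydrogenase of the last step to lignin monomers, was at 28.2, 31.9 and 31.6 CPM in wild type and 94.2, 41.7 and 68.6 CPM in idr1-1. The mutant libraries spread far more than the wild type ones and all lay above them. CAD2 rose by 1.16 on the log2 scale (SE 0.26, adjusted p = 0.022).

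The 4-coumarate-CoA ligases, which activate hydroxycinnamic acids, were split. 4CL1 fell from 11.3 ± 1.1 to 4.749 ± 1.996 CPM (SD, n = 3; log2 fold change -1.25, SE 0.33, adjusted p = 0.037), and 4CL5 rose from 5.07 ± 0.57 to 9.40 ± 1.68 CPM (log2 fold change 0.89, SE 0.23, adjusted p = 0.034). CAD8C rose by 0.53 (SE 0.14, adjusted p = 0.037), with values that were not whole in 5 of the 6 libraries. Without wild type replicate 1 or 3, or idr1-1 replicate 1 or 3, none of these 4 lignin genes was called, with adjusted p-values of 0.0696 to 0.14. Without wild type replicate 2, CAD2 and CAD8C were called and 4CL1 and 4CL5 were not (adjusted p 0.059 to 0.0658), and without idr1-1 replicate 2 CAD8C was not (adjusted p = 0.0554).

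The largest rises among named genes were in 2 neighbouring lipoxygenases, from a list added after values were seen. Of 6 lipoxygenases tested these 2 were called higher and none lower, beside 5.54% and 4.93% of all loci. Lipoxygenases add oxygen to polyunsaturated fatty acids, the first step towards jasmonates and leaf volatiles. CM-LOX1 (LOC_Os08g39840) was at 9.47, 13.2 and 6.18 CPM in wild type and 122, 29.1 and 77.8 CPM in idr1-1. CM-LOX2 (LOC_Os08g39850) was at 8.01, 11.5 and 7.44 CPM against 91.9, 21.9 and 65.0 CPM. In both genes idr1-1 replicate 2 was the lowest mutant library and still lay above the wild type. CM-LOX1 rose by 2.98 (SE 0.66, adjusted p = 0.021) and CM-LOX2 by 2.73 (SE 0.50, adjusted p = 0.013). Their values were not whole in 2 and 4 of the 6 libraries, so the division of reads between the adjacent copies is uncertain. Neither was called without wild type replicate 1 or 3 or idr1-1 replicate 3, and CM-LOX1 not without idr1-1 replicate 1, with adjusted p-values of 0.0524 to 0.0918. In drought they differed by -1.67 (SE 0.85) and 0.12 (SE 0.53), and neither was called. Those drought values include idr1-1 drought replicate 3, which stood apart from its group. With all libraries the difference between the genotype contrasts, control minus drought, passed the test for neither gene. Without that library it was 6.02 for CM-LOX1 (adjusted p = 0.0343) and 3.04 for CM-LOX2 (adjusted p = 0.0666) in edgeR's quasi-likelihood test.

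**Figure D4:**
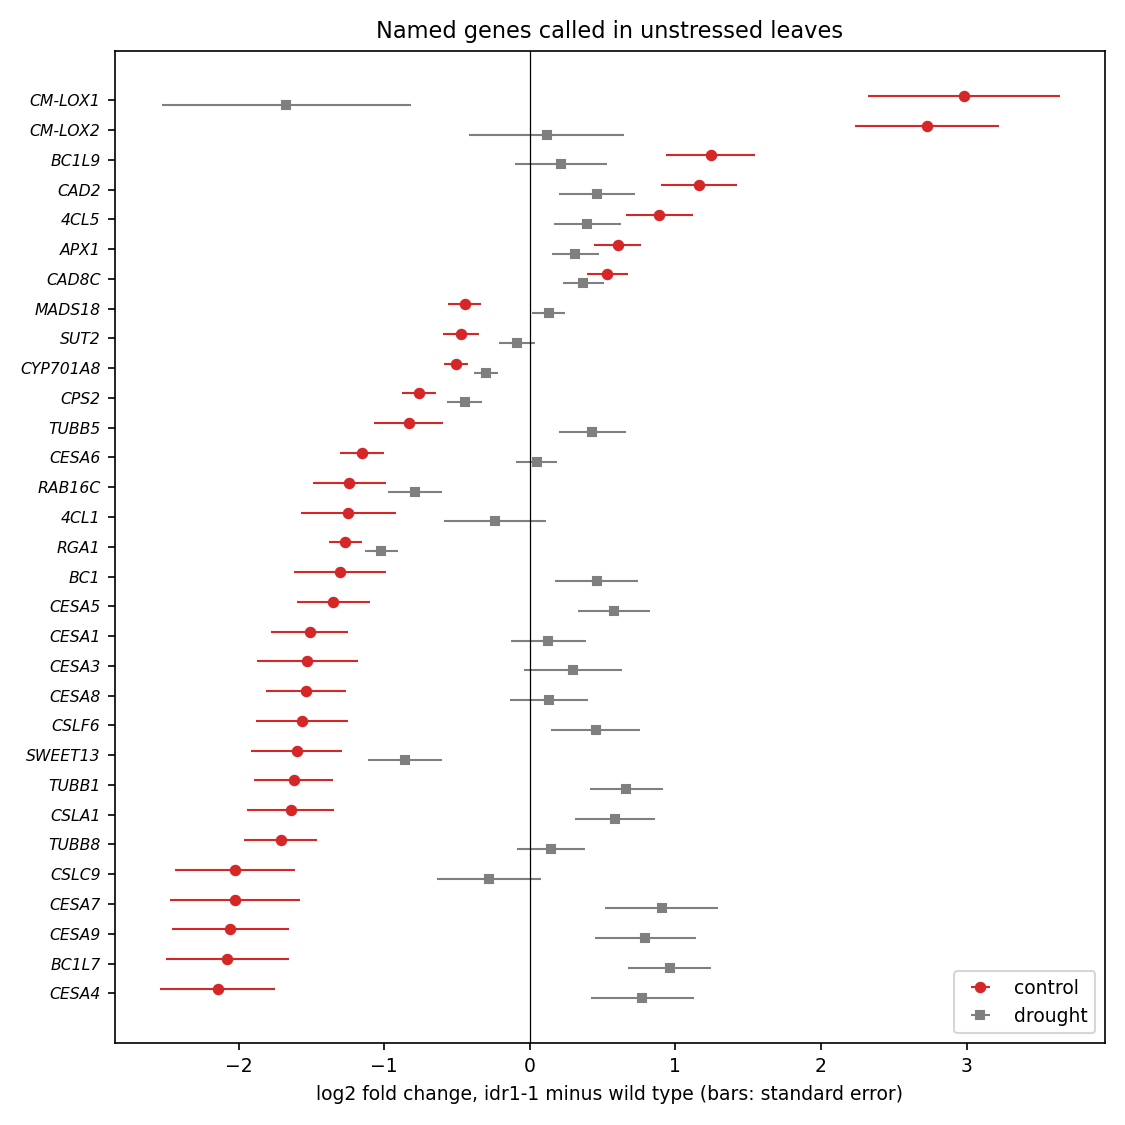
Log2 fold change, idr1-1 minus wild type, with its standard error, for the named genes called in control leaves (red circles) and for the same genes in drought (grey squares); lists behind them were chosen with earlier results known. The CESA genes lie between -2.14 and -1.15 in control and above 0 in drought, whereas RGA1 lies at -1.27 and -1.02. The drought values include idr1-1 drought replicate 3, which stood apart from its group.

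Jasmonate genes themselves gave no call. None of 7 synthesis and perception genes and none of 10 JAZ repressors tested passed the test, beside 10.5% of all loci. The list medians were -0.12 and -0.06. JAZ7, the most abundant of the repressors, was at 171, 157 and 211 CPM in wild type and 220, 200 and 191 CPM in idr1-1, which overlapped. In hormone lists tied to the alpha subunit by earlier work, 0 of 9 gibberellin and 0 of 12 brassinosteroid genes passed, beside 10.5% of all loci. Every mutant library was lower in 5 of the 9 and 5 of the 12, beside 19.3% of all loci, and higher in 1 and 2, beside 19.8%. An unadjusted p under 0.05 in edgeR's quasi-likelihood test was found for 5 and 4 (28.7% of all loci), and DESeq2 called 2 and 2 (15.2% of all loci). SLR1, the DELLA repressor of gibberellin responses, was at 103, 117 and 98.5 CPM against 112, 96.5 and 109 CPM. CYP90B2, of brassinosteroid synthesis, had a log2 fold change of -0.14 (SE 0.39, adjusted p = 0.85). These counts cover the members whose names were matched; with the unmatched loci of the same lists included, 2 of 17 gibberellin loci were called lower and none of 14 brassinosteroid loci.

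Among members with matched names, defence and oxygen lists held 1 call, and of 9 NADPH oxidases only 1 was matched. None of 13 defence genes passed, with a list median of 0.20, and PBZ1, a pathogenesis-related protein, was at 286, 208 and 263 CPM in wild type and 262, 340 and 278 CPM in idr1-1. RBOHB, an NADPH oxidase that makes superoxide at the cell surface, was at 255, 240 and 288 CPM against 175, 212 and 192 CPM. Its groups did not overlap, and it did not pass the test (log2 fold change -0.44, SE 0.13, adjusted p = 0.056). Of 14 genes for the removal of reactive oxygen, 1 was called: APX1, a cytosolic ascorbate peroxidase, rose from 218, 281 and 191 CPM to 330, 344 and 374 CPM (log2 fold change 0.60, SE 0.16, adjusted p = 0.038). With unmatched loci, 2 of 24 defence loci rose and none fell, and of 8 NADPH oxidase loci 1 rose and 2 fell. Over all loci tested, 5.54% were called higher and 4.93% lower, which applies to all counts in this paragraph.

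Diterpenoid phytoalexins are antimicrobial compounds that rice builds from the same precursor as gibberellins. Of 11 such genes tested, 2 were called lower, beside 4.93% of all loci, and none higher, and the list median was 0.43. With loci whose names were not matched, 2 of 14 were lower and 1 was higher. CPS2, a diterpene cyclase at the head of one branch, was at 142, 130 and 162 CPM in wild type and 96.7, 79.3 and 80.6 CPM in idr1-1. CYP701A8, a cytochrome P450 of the kaurene oxidase family, was at 96.3, 89.4 and 102 CPM against 68.1, 68.2 and 65.6 CPM. The groups were apart in both, with log2 fold changes of -0.76 (SE 0.12, adjusted p = 0.0084) and -0.51 (SE 0.08, adjusted p = 0.0093). CPS2 was called without any 1 of the 6 libraries.

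Of 13 genes tested for sugar transport and sucrose metabolism, 2 were called lower, beside 4.93% of all loci. SWEET13, a sucrose exporter of the phloem loading path, was at 7.12, 6.84 and 9.37 CPM in wild type and 2.34, 3.71 and 1.65 CPM in idr1-1 (log2 fold change -1.60, SE 0.31, adjusted p = 0.015). SUT2, a vacuolar sucrose transporter, fell by 0.47 (SE 0.13, adjusted p = 0.037), from 75.3 ± 9.1 to 54.2 ± 3.3 CPM (SD, n = 3). After drought SWEET13 stood at a mean of 47.1 CPM in wild type and 25.9 CPM in idr1-1, and it was not called between them there (adjusted p = 0.18). The idr1-1 drought mean includes replicate 3, which stood apart from its group.

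Among stress and development genes, 1 of 7 LEA proteins and dehydrins tested and 1 of 8 flowering time genes were called lower, beside 4.93% of all loci. RAB16C, a dehydrin, was low in control leaves, at 3.32, 3.79 and 4.10 CPM in wild type and 1.69, 1.80 and 1.25 CPM in idr1-1, and fell by 1.24 (SE 0.25, adjusted p = 0.017). MADS18, a floral transition factor, fell by 0.45 (SE 0.11, adjusted p = 0.033). Of the markers fixed for inflorescence and floral transition it was also the one called, and their sum was 90.4 to 108.8 CPM in wild type and 94.2 to 109.0 CPM in idr1-1.

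Of the 7 genes called in the lists from defence to flowering, 2 were called without wild type replicate 1, 2 without wild type replicate 3, 3 without idr1-1 replicate 1 and 1 without idr1-1 replicate 3, with adjusted p-values of up to 0.135 for the lost calls. The call of SUT2 was lost whichever 1 of the 6 libraries was left out (adjusted p 0.0519 to 0.135).

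Photosynthesis lists gave no call, though few of their members had matched names. None passed of 3 light-harvesting and photosystem genes, 2 carbon fixation genes, 10 chlorophyll synthesis genes or 4 chlorophyll breakdown genes, beside 10.5% of all loci. With unmatched loci included, 14, 9, 12 and 6 were tested and again none was called. Of the 14 light-harvesting and photosystem loci 13 had a change above 0, with a median of 0.099, and of the 9 carbon fixation loci 7 had a change below 0. CAB1R, an antenna protein of photosystem II, was at 12720, 13940 and 9574 CPM in wild type and 15330, 13760 and 14330 CPM in idr1-1. RCA, the activase of Rubisco, was at 2081, 1965 and 1980 CPM against 2006, 2313 and 2609 CPM. For both the groups overlapped. PORB, of chlorophyll synthesis, had a log2 fold change of 0.55 (SE 0.28, adjusted p = 0.23) and every mutant library above every wild type one.

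Further lists without a called member were the 14 aquaporins tested, 5 abscisic acid metabolism genes, 5 heat shock genes, 8 clock genes, 7 nitrogen assimilation genes and 4 cell division genes. Over all loci tested, 10.5% were called, 5.54% higher and 4.93% lower. With the loci of these lists whose names were not matched, 1 of 8 abscisic acid metabolism loci was called higher and 1 of 11 clock loci lower. Within them GI, a clock component, was at 1562, 1583 and 1671 CPM in wild type and 1303, 1389 and 1340 CPM in idr1-1, without overlap but with an adjusted p of 0.26. GLU, a glutamate synthase, was likewise lower in every mutant library, at 1499 to 1775 CPM against 2160 to 2293 CPM, with an adjusted p of 0.13. PIP2-7, HSFA2D and PCNA overlapped between the groups, as did LSI1, a silicon channel fixed as a root marker, at 14.7 to 18.9 CPM in wild type and 18.8 to 20.3 CPM in idr1-1. Over all lists without a call by edgeR's quasi-likelihood test, 21 of 128 genes tested (16.4%) had an unadjusted p under 0.05 and DESeq2 called 11 (8.59%). Over all loci these shares were 28.7% and 15.2%. Of the 21 and 11, 5 and 2 were among the gibberellin genes, 4 and 2 among the brassinosteroid genes, and 0 and 0 among the aquaporins, expansins, clock, heat shock and photosystem genes.

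A set of 34 loci had at least 10 counts in each wild type control library and 0 in all 3 idr1-1 control libraries, and no locus showed the reverse. In wild type control they held 41 to 1418 counts over the group, with a median of 191. Against a floor of 3 counts over the group they were at least 12.4-fold to at least 428-fold lower in idr1-1. In idr1-1 drought 30 of the 34 were again at 0, and the highest had 3 counts over the group. In wild type drought 26 had at least 10 counts summed over the group of 3 libraries, and 7 had 3 or fewer. With minimums of 3, 5 and 20 counts in each control library the numbers were 76, 56 and 22, and the reverse gave 1, 0 and 0. The rule of at least 10 counts in each library, applied to the drought libraries, gave 5 loci, and the reverse 0. The 34 control loci lay on all 12 chromosomes, with 8 on chromosome 1 and 6 on chromosome 8. Of these, 1 was within the 100 tested loci on either side of RGA1. In 27 of them every control value was whole. Differences in sequence between the lines were not analysed here.

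**Figure D5:**
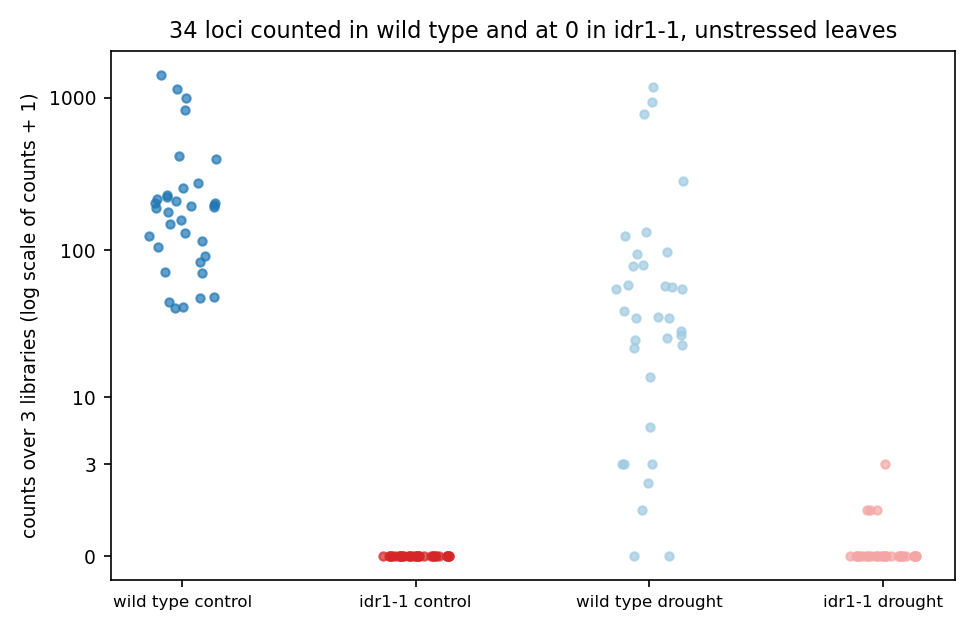
Counts summed over 3 libraries (vertical axis, log scale of counts plus 1) for the 34 loci, by group. Wild type control points lie between 41 and 1418, all idr1-1 control points at 0, and the highest idr1-1 drought point at 3, while wild type drought points run from 0 upwards.

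Some called loci had no usable name and are given by identifier. They are the 2 that rose and the 2 that fell with the largest fitted changes, among those whose groups did not overlap and whose higher group averaged at least 10 CPM. LOC_Os05g25610 was at 8.80, 34.5 and 20.1 CPM in wild type and 0 in all 3 idr1-1 libraries, at least 428-fold lower, and it was low in wild type drought as well, at 0.681, 0 and 1.96 CPM. LOC_Os01g57250 was at 6.64, 20.4 and 25.5 CPM against 0, at least 347-fold lower. In wild type drought it was at 8.38, 0 and 26.9 CPM, so wild type libraries themselves varied between none and many counts. Among risers, LOC_Os05g24780 went from 9.56, 10.7 and 1.497 CPM to 193, 34.01 and 107 CPM (log2 fold change 3.93, SE 0.71, adjusted p = 0.013), and LOC_Os12g04690 from 1.42, 1.68 and 1.59 CPM to 15.4, 4.19 and 13.96 CPM (log2 fold change 2.84, SE 0.58, adjusted p = 0.017). Neither riser was called without wild type replicate 1, and LOC_Os12g04690 was lost also without wild type replicate 3 or idr1-1 replicate 1 or 3, with adjusted p-values of 0.0519 to 0.0772. LOC_Os01g57250 was called without wild type replicate 2 alone of the 6, and LOC_Os05g25610 was not called without idr1-1 replicate 3.

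Calls were spread over the genome. By chromosome, 8.19% (chromosome 11) to 11.3% (chromosome 3) of tested loci were called. Among the 200 tested loci around RGA1, 10 rose and 9 fell, which is 9.5%, beside 10.5% over all loci. Of the 200, 4 were called with a change of at least 2-fold, beside 2.89% of all loci and 2.66% of those on chromosome 5. Among these 4 were LOC_Os05g24780 and LOC_Os05g25610. There were 5 runs of 3 consecutive tested loci that changed at least 2-fold in the same direction: on chromosomes 6, 7 and 10 upwards, with medians of 1.78, 1.32 and 1.20, and on chromosomes 1 and 9 downwards, with medians of -4.52 and -1.13.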

How the data were processed

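The deposited values are estimated counts per locus, not scaled to depth, with 55986 entries per library. Per the submitters' processing notes, the tools were HISAT2 2.1.0 and featureCounts 1.6.3. Genome build, annotation, strand setting and how shared reads were counted: not given in the sources used here. Fractional values, 13.9% of the nonzero ones in control libraries, show reads divided between features, so copies, overlapping genes and antisense pairs are uncertain. Values were rounded, which changed a control library total by at most 0.0011%.

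edgeR 4.0.16 in R 4.3.3 was used. After filterByExpr (22833 loci kept) and TMM scaling, its quasi-likelihood test took in all 12 libraries and a mean for each group, which left 8 residual degrees of freedom at a biological coefficient of variation of 0.17. P-values were adjusted by the Benjamini-Hochberg method across every locus tested (threshold 0.05). Fold changes are log2, idr1-1 minus wild type, and each standard error is the fold change divided by the root of its F value. The 3 contrasts were the genotypes in control, the genotypes in drought, and control minus drought. Replicates are biological per the labels, and p-values measure the spread between them. Floors cover counting error only. DESeq2 1.42.0 served as an alternative.

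The files hold locus identifiers without names. Names were recalled and kept only where a RefSeq gene table (assembly ASM3414082v1) holds that name on the same chromosome within 1 Mb of the position interpolated from the other members, which left 296 of 407 list members; counts called are over these unless unmatched loci are mentioned. From each list up to 4 called members with the largest changes were named, or the most abundant tested member where none was called, every matched G protein gene, and 2 unnamed loci per direction. CESA2 and CESA6 were named after their values were seen. The members and lists were chosen with earlier results of these data known, and 6 lists (hemicellulose, COBRA-like, tubulin, lignin, expansin and lipoxygenase) were added after the values were seen. A gene taken out of the lists is not reported here. Motifs in promoters were not analysed here.

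The steps were tested on simulated counts with 200 genes changed in the control contrast. Of 22833 genes simulated, 22461 passed the filter. The test found 70% of the 2-fold and 96% of the 4-fold changes, and 3.49% of its 172 calls were false. Counts were drawn independently for each library from the fitted spread, and unchanged genes had the same mean in all groups. No simulated library stood apart, and far fewer genes changed than were called in the real data. These rates therefore need not hold for the real libraries.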

Additional observations from a re-analysis of the deposited data

Results flagged for a closer look

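The genotype difference itself differed between control and drought leaves for 11 of 22833 loci (adjusted p under 0.05 for control minus drought, edgeR's quasi-likelihood test); at an unadjusted p under 0.05 there were 3540. All 11 were also called between the genotypes in control. The difference was below 0 for 3 of them and above 0 for 8, and ran from -4.67 to 2.20 on the log2 scale. None of the 11 is among the named genes. Without idr1-1 drought replicate 3 the number was 489. That library stood apart from the other 2 of its group in its TMM factor and in the share of counts in its most abundant loci, and why was not tested. Values of single libraries far from the others were not tested for, since each group holds 3.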

How the results depend on the processing

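RGA1 was called lower under all 15 alternatives, with log2 fold changes of -1.40 to -1.19. Against 2391 calls in control, library size scaling alone gave 1437. It moved the median of all loci to -0.084 and the share of calls that were higher from 52.9% to 41.7%. The count was 3822 with the 6 control libraries alone, 1112 with the replicate block and 1321 without replicate 2 of both control groups. Leaving out 1 library gave 207 to 4557, and 103 to 1052 for changes of at least 2-fold, for which the replicate block gave 406. DESeq2, DESeq2 size factors, no filter and a filter of 1 CPM kept the count within 1.5 times. The replicate numbers were not taken as pairs. Correlations of the deviations of same-numbered control libraries were 0.113, -0.333 and -0.038, and those of differently numbered ones ran from -0.196 to 0.227. Deviations within a group of 3 sum to 0, so these values cannot settle whether the numbers pair the samples. CESA genes called lower numbered 1 to 9 with 1 library left out and 7 to 9 under the other alternatives. Loci whose genotype difference differed between treatments numbered 708 with DESeq2, 82 without a filter, 2 with library size alone, 0 with the replicate block, 150 without replicate 2 of both control groups, and 0 to 489 with 1 library left out. The cause of these changes was not tested; settings with a library left out hold fewer samples. Alternatives that leave out replicate 2 of both control groups, and all those for the CESA count and for the difference, were chosen after seeing the data.

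Signs turned for 7 named genes that were not called. RGB1 gave -0.04 with library size alone and 0 without replicate 2 of wild type or of both groups. SLR1 gave 0.12 without replicate 2 of both groups, and 0.06 and 0.07 without replicate 2 of idr1-1 and of wild type. HSFA2D gave 0.07 with the replicate block, and 0.12 and 0.24 without replicate 1 of idr1-1 and of wild type. PBZ1 gave -0.04 without replicate 2 of both groups, PIP2-7 gave 0.03 without idr1-1 replicate 1, TUD1 gave 0.01 without wild type replicate 2, and EXPB3 gave 0 without idr1-1 replicate 3. With 1 library left out these ran from -0.06 to 0.07 for SLR1, -0.19 to 0.24 for HSFA2D, -0.13 to 0.03 for PIP2-7, -0.09 to 0.01 for TUD1 and -1.5 to 0 for EXPB3.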
